A study of Homo sapiens with 48 samples.

Results

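Expression of 10 genes of the granin and secreted neuropeptide system was followed in PSN1, a pancreatic ductal adenocarcinoma (PDAC) cell line, by RNAseq. The genes were taken by symbol, and all 10 were found among the 20241 genes of the table. They comprised the granins and granin-like genes SCG2, SCG3, SCG5, CHGA and CHGB, the peptide precursors NMU, NPPB and NTS, the neurotensin receptor NTSR1, and the prohormone convertase PCSK1. The set was chosen by the log2 CPM values of SCG2 and NMU, which changed strongly between the groups in these same libraries, so the values of those 2 genes are a description and carry no test. The other 8 were also chosen with earlier results of these data known, so their tests are not independent evidence. Parental PSN1 cells (genotype label WT) received no treatment. TalaR-M cells had acquired resistance to Talazoparib, a PARP inhibitor, and were kept in 50 nM of the drug, with 4 months given as the time. TalaR-DF cells were TalaR cells taken off the drug for some weeks and labelled as untreated. Both TalaR groups share the selection with Talazoparib, only TalaR-M cells were still under drug, and the sensitivity of either group to it was not measured in these libraries. All cells grew in the same medium with serum. Each group had 3 replicates, 9 libraries in all, and nothing in the labels says that replicates came from separate cultures, so a p here measures the spread between these libraries alone. The comparisons ask which genes differed in TalaR cells under drug, and which of these differences were still found without it.

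Granins are acidic secretory proteins that condense in the trans-Golgi network and help to form dense-core granules, the vesicles in which endocrine and neuronal cells store peptides for regulated release. Peptide precursors are sorted into these granules, cut at paired basic residues by prohormone convertases such as PCSK1 and PCSK2, and trimmed by carboxypeptidase E before release. SCG5 encodes 7B2, a chaperone of PCSK2. In the pancreas this pathway belongs to islet cells, while neurotensin and its receptor NTSR1 are also known in PDAC cells.

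The values were log2 CPM, the log2 of a gene's reads scaled to its library, and the lowest value listed was 0, which stands for at most 1 CPM. The reads on genes above 1 CPM came to between 8387755 and 14973847 per library, and 1 CPM was worth between 6.97 and 14.54 reads. TalaR-M replicate 2 stood apart: its values correlated with the other TalaR-M libraries at r = 0.78 over 10512 genes, against 0.994 between TalaR-M replicates 1 and 3, and it had the lowest depth. Results of those of the 10 genes that were detected in all TalaR-M libraries are therefore given with and without it. For other genes this is done only where stated. Of the ductal epithelial markers, 7 of 9 were above 1 CPM in every library, although CDH1, which defines epithelium, was at 0 throughout. The 6 islet hormone genes INS, GCG, SST, PPY, IAPP and GHRL were at 0 in all 9 libraries, and so were 7 of 14 neuroendocrine markers, among them NEUROD1, NKX2-2 and ISL1. The summed level of the neuroendocrine list was 198 to 214 CPM in parental, 123 to 178 in TalaR-M and 144 to 148 in TalaR-DF libraries, and that of the ductal list 1199 to 1261, 1784 to 5831 and 1017 to 1153 CPM. The sums of 123 and 5831 CPM were those of TalaR-M replicate 2. Its KRT8, a ductal marker, was 11.44 log2 CPM, against 9.92 and 9.83 in TalaR-M replicates 1 and 3. The neuroendocrine list includes REST, a repressor of neuronal genes, at means of 5.99, 5.28 and 5.94 log2 CPM in parental, TalaR-M and TalaR-DF cells. ENO2 stood at 6.90, 5.81 and 5.86, and NCAM1 at 4.29, 5.44 and 4.16. ENO2 and REST had the highest means of the list in parental cells, so its sum gives no neuroendocrine level. The part of these markers in the results was not tested.

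Upstream windows of 250 bases were found for 7 of the 10 genes in the RefSeq table of GRCh38.p14 (8 windows, PCSK1 having 2), and SCG2, CHGB and NPPB had no entry. They were searched on both strands for the cyclic AMP response element TGACGTCA, the classical site of granin and convertase promoters, and for the AP-1 motif TGANTCA, in which N is any base. The first motif stood once in the first PCSK1 window, with its first base 77 bases before the RefSeq transcript start, which lies inside the longer GENCODE gene model given for PCSK1, and once in the CHGA window, 54 bases before it. The 4 windows shown cover a gene at 0 in both TalaR groups, a gene at 0 throughout, a gene above 0 under drug alone and the gene with the largest fall. Capitals mark TGACGTCA.
PCSK1 (chr5:96433249-96433498, minus strand): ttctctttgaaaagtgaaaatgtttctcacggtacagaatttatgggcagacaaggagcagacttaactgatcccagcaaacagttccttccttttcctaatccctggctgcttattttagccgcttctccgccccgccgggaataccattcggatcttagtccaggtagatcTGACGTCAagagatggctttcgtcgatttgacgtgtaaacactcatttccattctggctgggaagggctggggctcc
CHGA (chr14:92922900-92923149, plus strand): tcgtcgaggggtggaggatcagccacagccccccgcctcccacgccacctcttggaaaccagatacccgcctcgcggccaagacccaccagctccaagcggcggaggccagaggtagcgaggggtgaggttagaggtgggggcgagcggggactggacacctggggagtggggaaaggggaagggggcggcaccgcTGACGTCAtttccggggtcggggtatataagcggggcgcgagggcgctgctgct
NMU (chr4:55636794-55637043, minus strand): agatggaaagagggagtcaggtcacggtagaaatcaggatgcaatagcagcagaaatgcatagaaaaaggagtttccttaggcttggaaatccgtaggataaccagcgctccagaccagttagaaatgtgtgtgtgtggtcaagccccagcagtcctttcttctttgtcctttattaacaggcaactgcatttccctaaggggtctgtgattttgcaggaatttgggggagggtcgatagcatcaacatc
NTS (chr12:85874045-85874294, plus strand): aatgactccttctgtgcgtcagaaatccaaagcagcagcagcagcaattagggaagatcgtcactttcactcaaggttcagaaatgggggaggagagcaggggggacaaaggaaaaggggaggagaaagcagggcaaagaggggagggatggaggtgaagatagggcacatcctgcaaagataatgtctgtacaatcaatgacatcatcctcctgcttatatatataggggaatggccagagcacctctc
Of 35116 windows of the same length, 1.65% held TGACGTCA and 6.57% held TGANTCA, and none of the 8 windows held the latter. PCSK1 and CHGA therefore carried the same letters close to their RefSeq starts, and any relation of the motif to their levels was not tested. A match is a description of the letters and no evidence of binding, and the 2 motifs overlapped in none of the 8 windows.

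In parental cells the neurotensin system dominated. Per kilobase of the canonical transcript, NTS reached 258 ± 4.06 CPM and NTSR1 44.4 ± 2.02 CPM (SD, n = 3). SCG5 and CHGB followed at 1.84 ± 0.113 and 1.80 ± 0.0905 CPM per kilobase, and their ranges overlapped. SCG2 and PCSK1 were lowest among the detected genes at 0.75 ± 0.0821 and 0.634 ± 0.154 CPM per kilobase, again with overlapping ranges. In TalaR-M cells the order was another one. SCG2 led with 62.2 ± 24.6 CPM per kilobase, NMU came next with 27.4 ± 20.6, then NTSR1 with 11.3 ± 3.04 and NTS with 7.74 ± 1.33. The ranges of SCG2 (34.6 to 82.0) and NMU (12.8 to 51.0) overlapped, as did those of NMU and NTSR1 (9.49 to 14.8), whereas NTSR1 lay above NTS (6.84 to 9.27) in all values. NPPB at 2.58 ± 0.806 and SCG5 at 1.71 ± 1.01 CPM per kilobase also overlapped. Without TalaR-M replicate 2 the means were 76 for SCG2, 15.5 for NMU, 9.56 for NTSR1, 6.98 for NTS, 2.13 for NPPB and 1.14 CPM per kilobase for SCG5, in the same order. In TalaR-DF cells only 3 of the 10 genes were above 1 CPM, NTS at 40.0 ± 2.1, NTSR1 at 20.2 ± 1.4 and SCG2 at 11 ± 0.497 CPM per kilobase, with no overlap between neighbours. In these bulk libraries, fewer cells that express a gene cannot be told apart from less RNA of it in each cell.

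**Figure D1:**
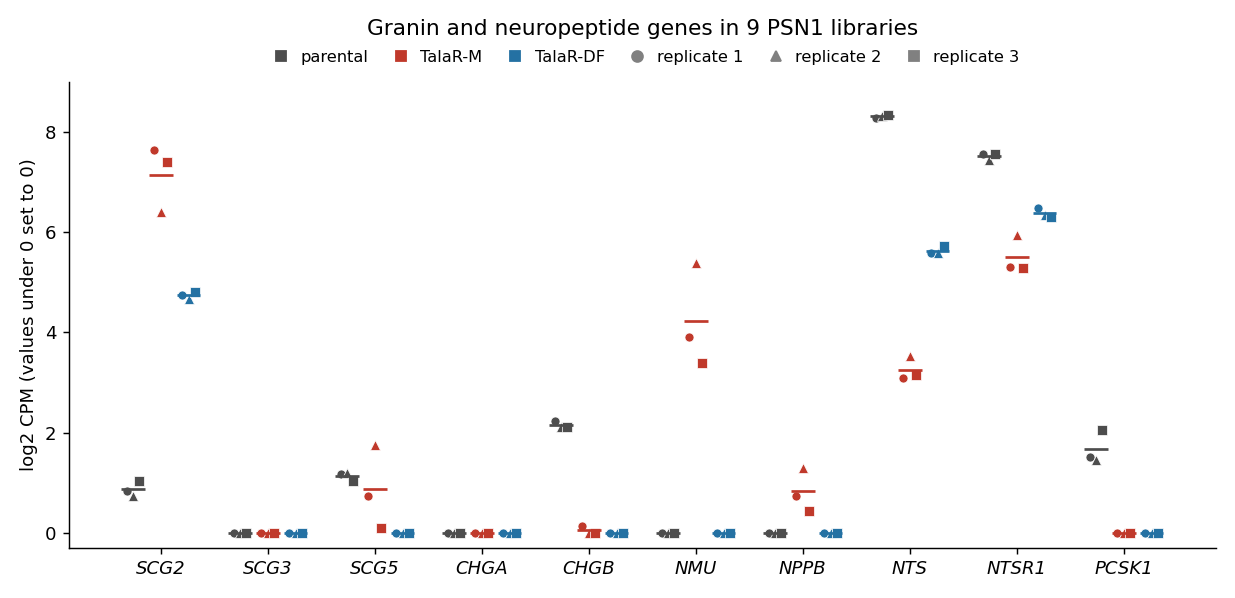
Level of the 10 genes in each of the 9 PSN1 libraries, in log2 CPM with values under 0 set to 0. Points are libraries, with the shape giving the replicate and the colour the group, and bars are group means. SCG2 rises from about 1 to above 6 in TalaR-M cells, NTS and NTSR1 fall with TalaR-DF cells in between, and NMU and NPPB are above 0 in TalaR-M libraries only.

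SCG2 encodes secretogranin II, a granin that is also the precursor of secretoneurin. It lies on chromosome 2 from 223596940 to 223602361 of GRCh38, on the minus strand, with 2 exons. The log2 CPM of SCG2 was 0.83, 0.73 and 1.03 in parental replicates 1 to 3, which rests on 25, 22 and 26 reads. Under drug it was 7.64, 6.40 and 7.41, from 3136, 634 and 2390 reads. After withdrawal it was 4.74, 4.67 and 4.80, from 389, 349 and 352 reads. The 3 groups did not overlap, TalaR-M libraries were the highest, and TalaR-DF libraries all lay between them and the parental ones. Over all genes tested, 49.8% did not overlap between TalaR-M and parental libraries, 68.5% between TalaR-DF and parental libraries, and 40.8% between TalaR-M and TalaR-DF libraries. Mean SCG2 in TalaR-M cells exceeded that of parental cells by 6.29 log2 units (SE 0.30, a 78.1-fold difference). Mean SCG2 in TalaR-DF cells did so by 3.88 (SE 0.30, 14.7-fold). TalaR-M cells exceeded TalaR-DF cells by 2.41 (SE 0.30, 5.32-fold). The set was chosen by SCG2 among others, so these SEs describe the libraries and carry no test. TalaR-M replicate 2 held the lowest of the drug-maintained values, and without it the differences were 6.66 from parental and 2.79 from TalaR-DF cells. Of the log2 difference between TalaR-M and parental cells, 61.7% was left in TalaR-DF cells, or 58.2% without TalaR-M replicate 2. A position of all TalaR-DF libraries between the other groups with TalaR-M highest was found in 2.97% of the 12471 genes tested.

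CHGB encodes chromogranin B, a main structural granin of the granule core (chromosome 20, 5911510 to 5925353, plus strand, 5 exons). Its log2 CPM was 2.23, 2.11 and 2.11 in parental cells, from 68, 59 and 56 reads. In TalaR-M cells it was 0.13 in replicate 1, from 16 reads, and 0 in the other two, and in TalaR-DF cells it was 0 in all 3. CHGB was thus at or next to 0 in both TalaR groups, with no overlap with parental cells. It was at least 4.31-fold lower in TalaR-M cells (log2 difference -2.11, SE 0.10, adjusted p = 3.37e-06 from limma with Benjamini-Hochberg adjustment over all genes tested) and at least 4.44-fold lower in TalaR-DF cells (adjusted p = 3.71e-06 from limma). A gene was called at an adjusted p under 0.05 and a difference of at least 2-fold, and CHGB was called in both comparisons. Genes above 0 in at least 3 libraries were tested. CHGB reached this number only with the parental libraries, so that it had to differ. The calls ended when 8 CPM was added to each value before the log, where the log2 differences were -0.58 and -0.64.

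SCG5 (chromosome 15, 32641676 to 32697098, plus strand, 6 exons) was close to the lower limit. Its log2 CPM was 1.17, 1.20 and 1.03 in parental libraries, from 32, 31 and 26 reads. It was 0.74, 1.76 and 0.10 in TalaR-M libraries, from 25, 25 and 14 reads, and 0 in the 3 TalaR-DF libraries. TalaR-M replicates lay on both sides of the parental values, whereas TalaR-DF cells lay below them. Between TalaR-M and parental cells the log2 difference of SCG5 was -0.27 (SE 0.35, 95% interval -1.08 to 0.54, adjusted p = 0.593 from limma), and -0.72 without TalaR-M replicate 2. In TalaR-DF cells SCG5 was at least 2.2-fold lower than in parental cells, which was not called (adjusted p = 0.061 from limma). Single TalaR-M libraries decided this call through the shared estimate of spread. It was called without TalaR-M replicate 2 (adjusted p = 7.14e-05 from limma) and without TalaR-M replicate 3 (adjusted p = 0.0192), within a range of 3.38e-05 to 0.17 over the alternatives. TalaR-M cells stood 0.87 above TalaR-DF cells (SE 0.35, adjusted p = 0.148 from limma), 0.42 without TalaR-M replicate 2, and 1.25 and called without TalaR-M replicate 3, while the difference from parental cells turned to 0.11. SCG5 shares its strand with the readthrough gene ARHGAP11A-SCG5 and overlaps the antisense gene SCG5-AS1, so its reads are uncertain.

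SCG3, which binds chromogranin A to granule membranes (chromosome 15, 51681492 to 51721026), and CHGA, the chromogranin A gene used as a clinical marker of neuroendocrine tumours (chromosome 14, 92923150 to 92935285), were listed at 0 in all 9 libraries. They were not tested, and a change below the floor of the table, 1 CPM, could not be seen. The 5 granin genes were thus split: 1 stood higher in both TalaR groups, CHGB was lower in both, SCG5 was called in neither, and SCG3 and CHGA were not detected.

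NTS encodes the precursor of neurotensin and neuromedin N, gut and brain peptides that act through NTSR1 (chromosome 12, 85874295 to 85882992, plus strand, 4 exons). The log2 CPM of NTS was 8.29, 8.32 and 8.34 in parental libraries, from 4607, 4464 and 4264 reads. It was 3.08, 3.52 and 3.14 in TalaR-M libraries, from 132, 86 and 123 reads. It was 5.59, 5.58 and 5.72 in TalaR-DF libraries, from 700, 659 and 665 reads. The groups did not overlap, and the TalaR-DF libraries all lay between the other groups. NTS was 33.6-fold lower in TalaR-M than in parental cells (log2 difference -5.07, SE 0.15, adjusted p = 2.58e-07 from limma). It was 6.44-fold lower in TalaR-DF cells (-2.69, SE 0.15, adjusted p = 7.18e-06 from limma), and TalaR-M lay 5.21-fold below TalaR-DF cells (-2.38, SE 0.15, adjusted p = 4.46e-05 from limma). All 3 differences were called, also without TalaR-M replicate 2, where the first was -5.21 and the last -2.52.

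NTSR1, the high-affinity G protein-coupled receptor of neurotensin (chromosome 20, 62708836 to 62762771, plus strand, 4 exons), moved the same way as its ligand. Its log2 CPM was 7.56, 7.44 and 7.56 in parental, 5.31, 5.94 and 5.29 in TalaR-M and 6.49, 6.35 and 6.30 in TalaR-DF libraries. The 3 groups did not overlap, and TalaR-DF libraries were again in between. The difference of NTSR1 from parental cells was -2.01 in TalaR-M (SE 0.18, 4.01-fold lower, adjusted p = 0.000124 from limma) and -1.14 in TalaR-DF cells (SE 0.18, 2.2-fold lower, adjusted p = 0.00356 from limma), and both were called. The first was -2.22 without TalaR-M replicate 2. TalaR-M cells lay 0.87 below TalaR-DF cells on the log2 scale (log2 difference -0.87, SE 0.18, adjusted p = 0.0202 from limma), short of 2-fold. Without TalaR-M replicate 2 this last difference was -1.08 and was called (adjusted p = 2.84e-07 from limma, range over the alternatives 2.84e-07 to 0.104). In TalaR-DF cells 53.0% of the log2 difference of NTS between TalaR-M and parental cells was left, and 56.8% of that of NTSR1. Without TalaR-M replicate 2 these shares were 51.6% and 51.4%. The intermediate position with TalaR-M lowest was shared by 5.74% of the genes tested. An antisense gene overlaps NTSR1, and whether strand was used in the counting is not given in the sources used here.

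NMU encodes neuromedin U, a peptide of gut and brain that acts on smooth muscle and appetite (chromosome 4, 55595229 to 55636698, minus strand, 10 exons). It was listed at 0 in all 3 parental and all 3 TalaR-DF libraries. In TalaR-M libraries its log2 CPM was 3.90, 5.38 and 3.39, from 233, 313 and 146 reads. NMU was therefore detected in every library kept under drug and in no other, at 10.5 to 41.6 CPM. The TalaR-M mean of 4.22 ± 1.03 log2 CPM (SD, n = 3) was at least 18.6-fold above both other groups. TalaR-M replicate 2 held the highest value, and without it NMU was at least 12.5-fold higher.

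NPPB, the precursor of B-type natriuretic peptide, which is best known from heart muscle (chromosome 1, 11857464 to 11858945, minus strand, 3 exons), was the only other member with that pattern. Its log2 CPM was 0.74, 1.30 and 0.44 in TalaR-M libraries, from 25, 18 and 18 reads, and 0 in the parental and TalaR-DF libraries. Under drug it exceeded parental cells by at least 1.77-fold (log2 difference 0.83, SE 0.20, adjusted p = 0.0187 from limma) and TalaR-DF cells by as much (adjusted p = 0.032 from limma). NPPB had entered the test through the TalaR-M libraries alone, so that it had to differ. Both differences were short of 2-fold and were not called. They were at least 1.5-fold without TalaR-M replicate 2, and without TalaR-M replicate 3 the log2 difference was 1.02 and called. With as few as 18 reads in a library the level lay just above the limit of detection. Detection in all TalaR-M libraries with 0 in all others was found for 110 genes, 0.882% of those tested.

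PCSK1 encodes prohormone convertase 1/3, the enzyme that opens many peptide precursors in the granule (chromosome 5, 96390333 to 96434143, minus strand, 14 exons). Its log2 CPM was 1.52, 1.45 and 2.06 in parental libraries, from 41, 37 and 54 reads, and 0 in all 6 TalaR libraries. PCSK1 was thus detected in parental cells only. It was at least 3.19-fold lower in TalaR-M cells (log2 difference -1.68, SE 0.16, adjusted p = 0.000171 from limma) and in TalaR-DF cells (-1.68, SE 0.16, adjusted p = 0.000213 from limma). Both were called, and neither call held with 8 CPM added, where both log2 differences were -0.49. PCSK1 had entered the test through the parental libraries alone, so that it had to differ. An antisense gene overlaps PCSK1 too. SCG5, CHGB and PCSK1 were the members above 1 CPM in all parental and at 0 in all TalaR-DF libraries, a pattern of 3.01% of the genes tested.

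**Figure D2:**
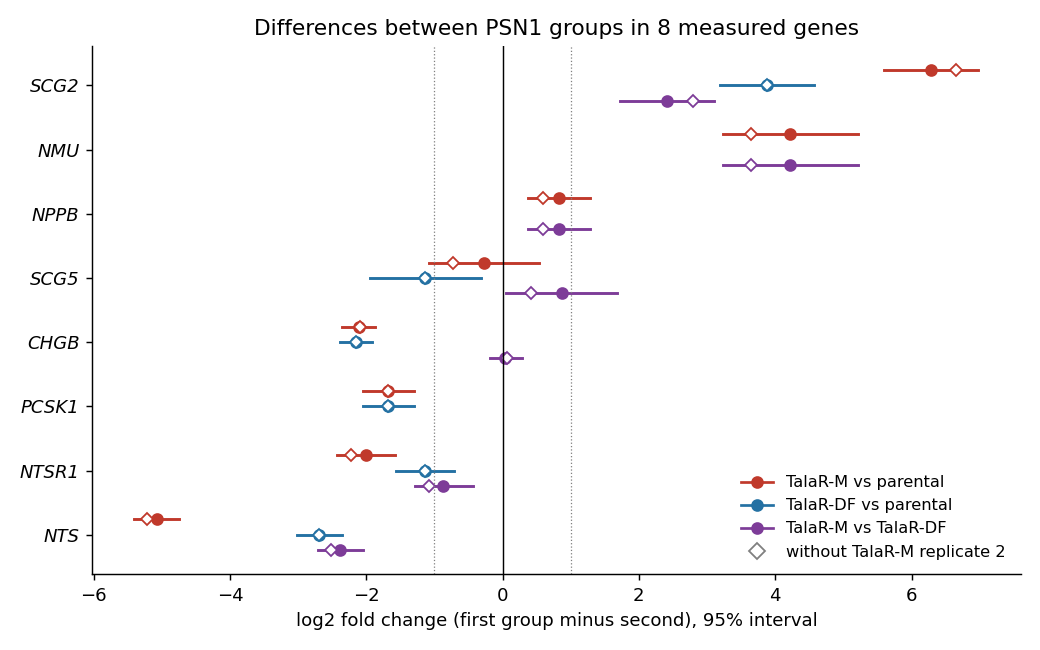
Differences between groups in log2 units for the 8 genes that were above 1 CPM in at least 3 libraries, with 95% intervals from limma. Open diamonds give the values without TalaR-M replicate 2, dotted lines mark a 2-fold difference, and pairs of groups that were both at 0 are not drawn. SCG2 and NMU lie right of the lines, CHGB, PCSK1, NTSR1 and NTS left of them against parental cells. The set was chosen by SCG2 and NMU, so their intervals carry no test.

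Counted over the 10 genes, 8 entered the test and SCG3 and CHGA did not. Between TalaR-M and parental cells, 4 of the 6 tested genes other than SCG2 and NMU were called lower (CHGB, NTS, NTSR1 and PCSK1) and 0 higher, where 13.3% of the 12471 genes tested were called, 7.72% lower and 5.53% higher. Between TalaR-DF and parental cells, the same 4 genes were called lower and 0 higher, where 9.73% were called, 7.49% lower and 2.25% higher. Between TalaR-M and TalaR-DF cells, NTS was called lower and 0 of the 6 were called higher, where 6.93% were called, 1.64% lower and 5.29% higher. These counts are given as a description. CHGB and PCSK1 had passed the filter on low values through parental libraries, and NMU and NPPB through TalaR-M libraries, so that these had to differ, and both comparisons with parental cells use the same parental libraries. The counts of 0 come from limma. At an unadjusted p under 0.05 and with no limit on fold, 1 of the 6 was higher in TalaR-M than parental libraries (NPPB), 0 in TalaR-DF than parental libraries, and 2 in TalaR-M than TalaR-DF libraries (NPPB and SCG5). Rescaling by the median ratio moved the median of all genes between TalaR-M and parental cells from -0.09 to 0.01 and changed the call of no member.

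TalaR-M replicate 2 deviated by transcript length, which bears on these genes, since several peptide precursors are short. Over 9805 genes in 10 length classes of about equal size, its deviation from the average of the other two had a median of 1.38 log2 units in the shortest class (207 to 1396 bases) and of -1.45 in the longest. NMU (816 bases), SCG5 (1198), NPPB (708) and NTS (1239) fall in the shortest class, and all 4 were higher in replicate 2, by 1.74, 1.34, 0.71 and 0.41. The first pair lay within the middle 50% of that class, 0.76 to 1.98, and the second below it. SCG2 (2434 bases) was lower in replicate 2 by 1.13, a deviation of -1.13 where its class had a median of -0.12 and a middle 50% of -0.76 to 0.50. NTSR1 (4133 bases) deviated by 0.63 where its class had a median of -0.93. SCG2 and NTSR1 thus deviated beyond the middle 50% of genes of their length, in opposite directions. The part of length in the results was not tested, and the differences without replicate 2 stand beside those of these 6 genes.

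**Figure D3:**
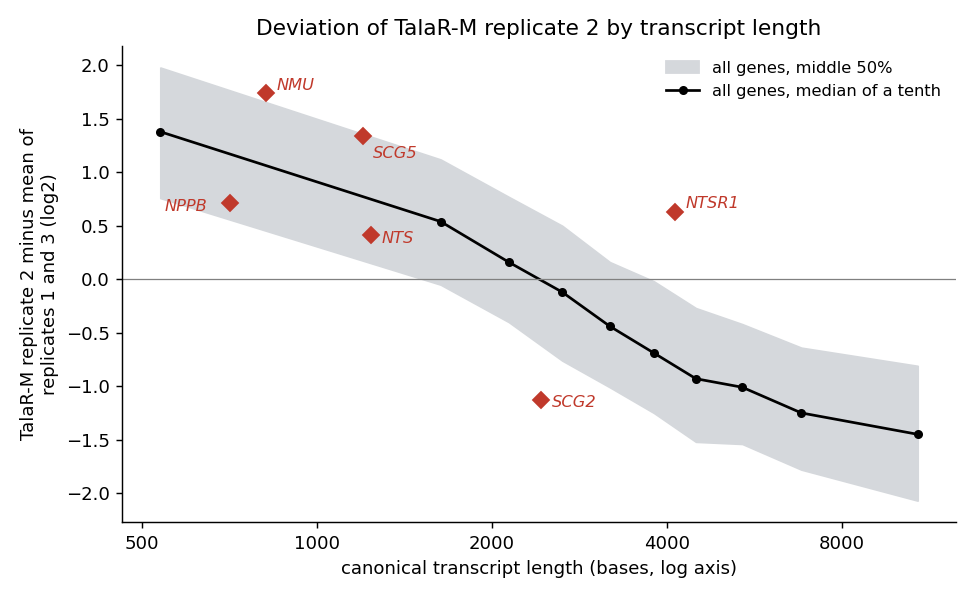
Deviation of TalaR-M replicate 2 from replicates 1 and 3 of that group averaged, in log2 units, against the length of the canonical transcript on a log axis. The black line joins the medians of 10 length classes of 9805 genes, the grey band is their middle 50%, and red diamonds are the 6 genes detected in all TalaR-M libraries. NMU, SCG5, NPPB and NTS lie above 0 with the other short genes, SCG2 below its class and NTSR1 above its class.

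The enzymes that process peptide precursors were measured next, as a list of 19 genes of which 14 were tested and 4 were at 0 in all libraries. Between TalaR-M and parental cells 0 rose and 4 fell in limma (2 higher and 5 lower at an unadjusted p under 0.05), with a median of -0.04 against -0.09 over all genes. CPE, the carboxypeptidase that trims the cut peptides, fell 11-fold, from a mean of 8.96 to 5.49 log2 CPM (-3.46, SE 0.33, adjusted p = 0.000146 from limma). Without TalaR-M replicate 2 this difference was -3.02. CPE was at 6.42 in TalaR-DF cells (-2.53 from parental, adjusted p = 0.0011 from limma). PCSK6 differed by -1.57 in TalaR-M cells (adjusted p = 0.0406 from limma), a call that was lost when any 1 library except TalaR-M replicate 1 or 3 was left out. Without TalaR-M replicate 2 both PCSK6 (-0.95) and FURIN (-0.80) were no longer called. Without that library, 2 enzymes were therefore called in place of 4. The call of FURIN also ended with median ratio rescaling or with 8 CPM added. In TalaR-DF cells 0 rose and 2 fell, CPE among them (0 and 4 at an unadjusted p under 0.05), with a median of -0.16 against 0.01. Between TalaR-M and TalaR-DF cells limma called 0 (2 higher and 2 lower at an unadjusted p under 0.05), with a median of 0.05 against -0.09. Over all genes tested, 5.53% were called higher and 7.72% lower in TalaR-M than in parental cells. The shares were 2.25% and 7.49% for TalaR-DF against parental cells, and 5.29% and 1.64% for TalaR-M against TalaR-DF cells.

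Genes of granule assembly and release were a list of 39, of which 38 were in the table, 27 were tested and 11 were at 0 in all libraries. In TalaR-M cells 4 rose and 11 fell relative to parental cells, with a median of -0.56 against -0.09 over all genes, and 5 and 8 without TalaR-M replicate 2. Over all genes tested, 5.53% were called higher and 7.72% lower. SV2A, a membrane glycoprotein of synaptic and secretory vesicles, fell the most, from 4.06 to 0.07 log2 CPM (-3.99, SE 0.12, adjusted p = 3.13e-07 from limma), and had passed the filter through the parental libraries. UNC13A, which primes vesicles for fusion, fell from 7.30 to 3.91 (-3.38, SE 0.18, adjusted p = 5.08e-06 from limma), or by -3.2 without TalaR-M replicate 2. RAB3D, a small GTPase of secretory granules, fell from 4.99 to 1.93 (-3.05, SE 0.53, adjusted p = 0.00424 from limma), or by -2.33 without TalaR-M replicate 2. Other genes of the list went the other way. UNC13D, known for granule release in lymphocytes, rose from 4.88 to 6.97 (2.09, SE 0.16, adjusted p = 3.56e-05 from limma), RAB3B from 1.42 to 3.29 (1.87, adjusted p = 0.00647) and HID1, needed for granule maturation at the Golgi, from 0.87 to 2.57 (1.70, adjusted p = 0.000604). The calls of RAB3B and HID1 ended with 8 CPM added.

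In TalaR-DF cells 1 gene of this list rose and 8 fell relative to parental cells, with a median of -0.54 against 0.01. Over all genes tested, 2.25% were called higher and 7.49% lower. The gene of the list that rose was SYTL5, a Rab27 effector, from 4.31 to 6.45 log2 CPM (2.15, adjusted p = 0.00452 from limma). SV2A was at 0 in all TalaR-DF libraries, RAB3D differed from parental cells by -3.0 (adjusted p = 0.00548 from limma) and SYT11, a synaptotagmin that does not bind calcium, by -2.36 (adjusted p = 0.000674 from limma, not called with 8 CPM added). Between TalaR-M and TalaR-DF cells 4 genes were higher and 3 lower under drug, with a median of 0.00 against -0.09. Over all genes tested, 5.29% were called higher and 1.64% lower. The 7 calls of the list became 4 without TalaR-M replicate 3 or TalaR-DF replicate 1, and 3 without TalaR-DF replicate 2 or 3. The increases were led by HID1 (2.57, adjusted p = 0.000162 from limma), which was at 0 in all TalaR-DF libraries, RAB3B (1.89, adjusted p = 0.0118) and UNC13D (1.51, adjusted p = 0.000597). HID1 and RAB3B were not called with 8 CPM added, nor RAB3B without TalaR-DF replicate 2 or 3. VGF, itself a granin-like precursor, had the largest decrease of the 3 (-2.07, SE 0.44, adjusted p = 0.0204 from limma, -2.66 without TalaR-M replicate 2), and its call was lost without TalaR-M replicate 3 or any 1 TalaR-DF library. The log2 CPM of VGF was 7.60, 7.56 and 7.67 in parental, 4.22, 6.09 and 4.42 in TalaR-M and 7.26, 7.0 and 6.68 in TalaR-DF libraries, so that TalaR-M replicate 2 lay nearest to the other groups. UNC13A was also lower under drug (-1.46, adjusted p = 0.00157), and SYTL5 too (-1.45, adjusted p = 0.0382), a call lost when any 1 library except TalaR-M replicate 1 was left out.

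**Figure D4:**
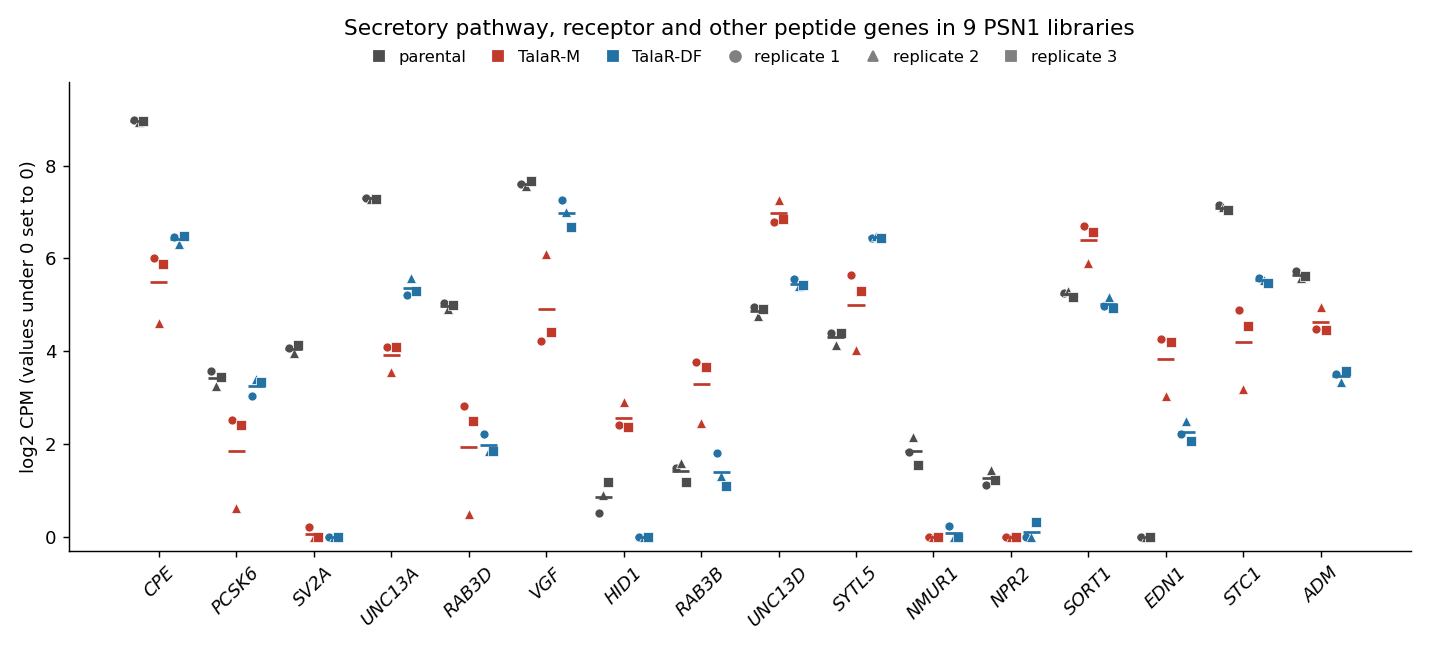
Level of 16 genes of precursor processing, granule release, peptide receptors and other peptide precursors in the 9 PSN1 libraries, in log2 CPM with values under 0 set to 0. Points are libraries, with the shape giving the replicate and the colour the group, and bars are group means. CPE, SV2A, UNC13A and RAB3D stand below parental cells in both TalaR groups, HID1, RAB3B and UNC13D are highest in TalaR-M cells, and EDN1 is above 0 in TalaR cells only.

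Most other peptide precursors were listed at 0, that is, at most 1 CPM. Of 48 such genes 34 were at 0 in all libraries and 11 were tested, of which 1 rose and 2 fell in TalaR-M cells (median 0.28 against -0.09), 1 rose and 2 fell in TalaR-DF cells (-0.26 against 0.01), and 2 were higher and 0 lower in TalaR-M than in TalaR-DF cells (0.72 against -0.09, with 6 higher and 1 lower at an unadjusted p under 0.05 in limma). The last count was 4 without TalaR-M replicate 1, and 1 without TalaR-DF replicate 1 or 3. Over all genes tested, 5.53% were called higher and 7.72% lower in TalaR-M than in parental cells. The shares were 2.25% and 7.49% for TalaR-DF against parental cells, and 5.29% and 1.64% for TalaR-M against TalaR-DF cells. EDN1, the precursor of the vasoconstrictor endothelin-1, was at 0 in the 3 parental libraries. Its log2 CPM was 4.27, 3.03 and 4.20 in TalaR-M and 2.23, 2.49 and 2.06 in TalaR-DF libraries, so that EDN1 resembled SCG2 in the order of the groups. EDN1 exceeded parental cells at least 14.2-fold under drug (adjusted p = 6.12e-05 from limma) and at least 4.78-fold after withdrawal (adjusted p = 0.00161 from limma), and TalaR-M exceeded TalaR-DF cells by 1.57 (adjusted p = 0.0153). The last 2 calls ended with 8 CPM added, and the last also without TalaR-DF replicate 1 or 3. Without TalaR-M replicate 2, EDN1 under drug exceeded parental cells by at least 4.23 log2 units and TalaR-DF cells by 1.98. STC1, a stanniocalcin that acts on calcium and phosphate balance, fell from 7.10 log2 CPM to 4.20 in TalaR-M (-2.89, adjusted p = 0.000951 from limma) and 5.53 in TalaR-DF cells (-1.56, adjusted p = 0.0228), the latter not called when any 1 parental or TalaR-DF library was left out. Without TalaR-M replicate 2 the STC1 differences were -2.38 and -1.56, and both were called (adjusted p = 1.65e-09 and 2.16e-08 from limma). ADM, the precursor of the vasodilator adrenomedullin, fell from 5.65 to 4.63 in TalaR-M cells (-1.02, adjusted p = 0.00376 from limma) and further to 3.48 in TalaR-DF cells (-2.17, adjusted p = 6.81e-05). The first ADM call was lost without parental replicate 1 or without TalaR-M replicate 1 or 3. It was also lost with median ratio rescaling or with 8 CPM added. ADM was higher in TalaR-M than in TalaR-DF cells by 1.15 (adjusted p = 0.00424 from limma), which was 0.99 and not called without TalaR-M replicate 2. This call too was lost with 8 CPM added.

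The receptors and peptidases of these peptides were a list of 15 genes, 9 of them tested and 6 at 0 in all libraries, including the second neurotensin receptor NTSR2, the neuromedin U receptor NMUR2, the natriuretic peptide receptors NPR1 and NPR3 and the peptidase MME. In TalaR-M cells 1 rose and 2 fell (median 0.01 against -0.09), in TalaR-DF cells 0 rose and 3 fell (-0.21 against 0.01), and 1 was higher and 0 lower in TalaR-M than in TalaR-DF cells (-0.08 against -0.09). At an unadjusted p under 0.05 in limma, 2 were higher in TalaR-DF than parental libraries and 1 was lower in TalaR-M than TalaR-DF libraries. Without TalaR-M replicate 2 the first counts were 2 and 3. Over all genes tested, 5.53% were called higher and 7.72% lower in TalaR-M than in parental cells. The shares were 2.25% and 7.49% for TalaR-DF against parental cells, and 5.29% and 1.64% for TalaR-M against TalaR-DF cells. NMUR1, the other receptor of neuromedin U, was detected at 1.83, 2.16 and 1.56 log2 CPM in parental cells, where NMU was at 0. NMUR1 was at 0 in the 3 TalaR-M libraries, where NMU was detected (-1.85, adjusted p = 8.88e-05 from limma), and at 0.23, 0 and 0 in TalaR-DF cells (-1.77, adjusted p = 0.000147). NMU and its receptor were thus above 1 CPM together in none of the 9 libraries. NPR2, the receptor of C-type natriuretic peptide, fell from 1.27 to 0 in TalaR-M (adjusted p = 0.000316 from limma) and 0.11 in TalaR-DF cells (adjusted p = 0.000658). ACE, the angiotensin-converting enzyme, fell from 1.33 in parental to 0 in TalaR-DF cells (adjusted p = 0.001 from limma). NMUR1, NPR2 and ACE had reached 3 libraries above 0 only with the parental ones, so that they had to differ, and their calls ended with 8 CPM added. SORT1, the sorting receptor sortilin that also binds neurotensin, rose from 5.23 to 6.39 log2 CPM in TalaR-M cells (1.16, adjusted p = 0.00525 from limma) and was at 5.02 in TalaR-DF cells (TalaR-M higher by 1.37, adjusted p = 0.00476). The first of these calls was lost without TalaR-M replicate 1. Without TalaR-M replicate 2 the SORT1 differences were 1.41 and 1.62. SORT1 was highest in the group in which NTS and NTSR1 were lowest.

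The genes whose values over the 9 libraries were most like those of SCG2, among 12463 others, were DKK1 (Pearson r 0.9972), LIPH (0.997), CCDC80 (0.9967), PTGIS (0.9963) and BACE2 (0.9953). DKK1, a secreted Wnt antagonist, was at 2.71, 6.74 and 5.43 log2 CPM in parental, TalaR-M and TalaR-DF cells, and PTGIS, the prostacyclin synthase, at 0.95, 6.81 and 4.44. For NMU they were EVI2A (0.9981), DENND2A (0.9979), BZRAP1 (0.9977), GAD1 (0.9966) and C4BPB (0.9959), of which C4BPB reached 3.68 log2 CPM in TalaR-M cells and the other 4 between 0.52 and 1.56. These values describe likeness over libraries that share 3 groups and their depths. Without TalaR-M replicate 2, 3 of the 5 genes stayed among the 5 most like SCG2 and 1 of the 5 among those most like NMU.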

How the data were processed

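Stranded poly(A) libraries of PSN1 cells were analysed, 3 per group (parental, TalaR-M, TalaR-DF). The series has 48 samples, and the other lines and short treatments were not analysed here. The authors deposited log2 values, read from their steps as log2 CPM on an effective library size with a prior of about 1 read and with values under 0 set to 0. All values under 50 CPM gave whole reads (tolerance 0.02), which were used for depth only. The submitters' processing notes name hg38, and the aligner, counter and annotation are not given in the sources used here. The column name maintain was read as TalaR-M and withdraw as TalaR-DF.

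One limma 3.58.1 model (R 4.3.3) held the 3 groups, with a mean-variance trend. Genes above 0 in at least 3 libraries were tested (12471), and a call needed an adjusted p (Benjamini-Hochberg) below 0.05 with a difference of 2-fold or more. The values were used without a further pseudocount. Where a group was at 0, the fold was computed against 1 CPM and is a lower bound. The fit was tested on simulated libraries of equal depth with no deviating library, so that test does not cover the effect of TalaR-M replicate 2. A 3 against 3 permutation test of 1 gene cannot pass the threshold and was not used.

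Members and lists were chosen with earlier results of these data known. Named genes are the members, in each list up to 3 called genes with the largest change in either direction per comparison, and the 5 genes most correlated with SCG2 and with NMU. FURIN was also named, because its call changed. Some genes of the lists are not reported here by name, and the counts include them. Of the marker lists, the neuroendocrine, islet hormone, ductal, acinar, leukocyte and endothelial lists were used. Lengths and positions came from GENCODE 44 on GRCh38, matched by symbol for 93.7% of the tested genes, and promoter windows from RefSeq. Replicate numbers shared between groups did not pair the samples. The alternatives were a pseudocount of 8 CPM, no filter or a minimum of 5 CPM, median ratio rescaling, no trend, a fit of 2 groups, a replicate block and leaving out each library. Fits without a library kept the genes of the 9-library fit, a choice made after seeing the data.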

Additional observations from a re-analysis of the deposited data

How the results depend on the processing

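With 8 CPM added to every value, 711 genes were called between TalaR-M and parental cells in place of 1653, 426 in place of 1214 between TalaR-DF and parental cells, and 272 in place of 864 between TalaR-M and TalaR-DF cells. A fit of those 2 groups alone gave 484 for the last. The cause was not tested. Leaving out 1 library gave 1298 to 2045, 983 to 1417 and 578 to 1043 calls. Values near 1 CPM set the limits: CHGB and PCSK1 lost their calls against parental cells with 8 CPM added, and NPPB (1.02) was called without TalaR-M replicate 3. The only change of sign in a member was SCG5 between TalaR-M and parental cells, from -0.72 without TalaR-M replicate 2 to 0.11 without TalaR-M replicate 3. With a minimum of 5 CPM, SCG5, CHGB, NPPB and PCSK1 were not tested. Of 326 values of the members over all alternatives, 310 were counted as unchanged, 7 gained a call, 4 lost it and 4 moved in size. Unchanged stands for the same direction and call. The values of SCG2 and NMU, which carry no call, were judged by size alone. With 8 CPM added, the SCG2 differences from parental cells were 3.94 and 1.82, and those of NMU 1.79. Same-numbered libraries correlated at -0.311 to 0.158 in their deviations, so the replicate number was not taken as a pairing, and a replicate block gave 1546, 1132 and 750 calls and changed the call of no member.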

Other observations

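Markers of other cell types differed between the same groups. INSM1, a transcription factor of neuroendocrine differentiation, was at 0 in parental libraries and at 2.37, 0.95 and 2.25 log2 CPM in TalaR-M and 1.63, 1.39 and 1.19 in TalaR-DF libraries (log2 differences of at least 1.86 and 1.40, adjusted p = 0.00577 and 0.0242 from limma). NCAM1, a neural adhesion molecule, rose in TalaR-M cells by 1.15 (adjusted p = 0.00436 from limma) and was at 4.16 in TalaR-DF cells against 4.29 in parental cells, whereas ENO2, neuron-specific enolase, fell by 1.09 in TalaR-M and by 1.04 in TalaR-DF cells (adjusted p = 0.000338 and 0.00057 from limma). Of the 14 neuroendocrine genes 7 were tested, of which 2 rose and 1 fell in TalaR-M cells and 1 rose and 1 fell in TalaR-DF cells, where 5.53% and 7.72% of all genes tested were called higher and lower in TalaR-M cells and 2.25% and 7.49% in TalaR-DF cells. The median of the list was 0.92 against -0.09 over all genes, and -0.05 against 0.01. The calls of INSM1, NCAM1 and ENO2 ended with 8 CPM added, that of INSM1 in TalaR-DF cells also without any 1 parental or TalaR-DF library, and that of ENO2 in TalaR-DF cells without TalaR-DF replicate 3. Without TalaR-M replicate 2 the INSM1 differences were at least 2.31 and 1.40, and both were called (adjusted p = 1.4e-07 and 3.52e-06 from limma). The ENO2 call in TalaR-M cells also ended with median ratio rescaling. REST, the repressor of neuronal genes, is part of the list and was not called (log2 differences -0.71 and -0.05, adjusted p = 0.266 in TalaR-M cells from limma).

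Of the 9 ductal markers 8 were tested, of which 3 rose and 0 fell in TalaR-M cells (4 and 1 at an unadjusted p under 0.05 in limma), with a median of 1.18, and 0 rose and 2 fell in TalaR-DF cells (1 and 3), with a median of -0.04. Over all genes tested, 5.53% were called higher and 7.72% lower in TalaR-M cells, and 2.25% and 7.49% in TalaR-DF cells. KRT19 (2.62, adjusted p = 0.00233 from limma), CFTR (1.57, adjusted p = 0.0085) and EPCAM (1.20, adjusted p = 0.000248) rose in TalaR-M relative to parental cells, while KRT7 and MUC1 fell in TalaR-DF cells by 1.23 and 1.64 (adjusted p = 0.0426 and 0.018 from limma). Without TalaR-M replicate 2 the differences of KRT19, CFTR and EPCAM were 2.07, 1.88 and 1.22. CFTR was above 0 in the TalaR-M libraries alone, so that it had to differ, and its call ended with 8 CPM added. The call of KRT7 was lost when any 1 parental or TalaR-DF library was left out, and that of MUC1 likewise except for TalaR-DF replicate 3. TalaR-M replicate 2 is in neither group but enters the shared estimate of spread. Without that library both KRT7 and MUC1 were called (adjusted p = 2.08e-08 and 1.02e-06 from limma). The KRT7 call was also lost with median ratio rescaling or a replicate block, and the MUC1 call with 8 CPM added. SOX9 differed by -0.93 in TalaR-M cells and was not called. The summed level of the acinar list was 3.62 to 4.39 CPM in parental, 2.43 to 8.85 in TalaR-M and 0 in TalaR-DF libraries. The leukocyte list summed to 11.1 to 14.7, 4.14 to 7.11 and 1.18 to 2.55 CPM, with CD3E and CD68 at 0 in all libraries, and the endothelial list to 28.8 to 30.9, 5.91 to 9.06 and 2.92 to 3.24 CPM, with VWF at 0. The acinar 8.85, the leukocyte 7.11 and the endothelial 5.91 CPM were the sums of TalaR-M replicate 2.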
